A study of Mus musculus with 14 samples.

Results

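The genes described are the transcriptional end of the Hippo pathway: the coactivators Yap1 and Wwtr1 (which encodes TAZ), the DNA-binding partners Tead1, Tead2 and Tead4, and the target genes Ctgf, Cyr61, Ankrd1, Amotl2 and Thbs1. They were chosen by name, as known members of the pathway and known targets, but with earlier results of these data known. All 10 were found among the 23174 rows of the deposited table. The values come from 14 polyA RNA-seq libraries of mouse cells, from a study of Zfp281, a zinc finger protein, as a barrier that keeps embryonic stem cells (ESCs) from becoming extraembryonic endoderm (XEN) cells, the stem cells of the yolk sac endoderm. Each library is 1 cell line at 1 stage.

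The 4 lines of the course were 3WT (WT), 3.34Null and 2.6Null (both Zfp281KO) and 3.34Null-Rescue (3.34Null with Zfp281 put back), all of 129S1/SVImJ background. The titles call one knockout line 2.6Null and its cell line field reads 2.26-/-, and the title is used here. Each line was sampled as ESC, grown without feeders in serum with LIF, as cXENp1 and as cXENp3. The stage cXENp1 followed a change to XEN medium and 48 hours of all-trans retinoic acid at 0.01 µM with activin A at 10 ng/mL. The stage cXENp3 was reached after a passage on iMEF feeder cells and a return to gelatin. XENB1 (129S1) and XEN5 (129S1/SVImJ) are WT XEN lines kept in MEF-conditioned medium, with 1 library each. The KO lines are 3.34Null and 2.6Null, and 3WT with 3.34Null-Rescue are called the Zfp281-present lines. The labels do not say whether a line is 1 clone, and 3.34Null-Rescue derives from 3.34Null, so p-values measure the spread between these libraries.

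In the Hippo pathway a kinase cascade phosphorylates YAP and TAZ and holds them in the cytoplasm. When the cascade is off, for instance in spread cells on a stiff surface, YAP and TAZ enter the nucleus, bind TEAD proteins and switch on genes such as Ctgf and Cyr61. In the early mouse embryo YAP and TEAD4 are best known for specifying the trophectoderm, and YAP is also active in stem cells grown in culture. The mRNA level of Yap1 does not report where its protein is, and the table holds mRNA values for all 10 genes.

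TEAD proteins bind the hexamer GGAATG, whose complement reads CATTCC, and the promoters of 3 target genes are shown because these genes rose together in the data below. The windows are the 250 bases before the RefSeq start on GRCm38.p6, a different build from that of the table, with the hexamer on either strand in capitals. RefSeq promoters were matched for 6 of the 10 genes, and Ctgf, Thbs1, Tead1 and Tead4 were not matched.
Cyr61, chr3:145649986-145650235, minus strand: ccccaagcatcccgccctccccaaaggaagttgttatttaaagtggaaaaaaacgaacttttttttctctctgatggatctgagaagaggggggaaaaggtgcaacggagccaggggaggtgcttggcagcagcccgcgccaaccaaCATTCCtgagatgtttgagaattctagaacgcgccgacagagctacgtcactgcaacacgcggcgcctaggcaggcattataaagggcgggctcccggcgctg
Ankrd1, chr19:36119845-36120094, minus strand: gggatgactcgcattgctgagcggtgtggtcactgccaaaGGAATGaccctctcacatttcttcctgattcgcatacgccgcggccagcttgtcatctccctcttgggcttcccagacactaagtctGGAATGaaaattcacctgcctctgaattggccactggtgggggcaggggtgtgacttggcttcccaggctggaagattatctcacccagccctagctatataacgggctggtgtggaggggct
Amotl2, chr9:102717554-102717803, plus strand: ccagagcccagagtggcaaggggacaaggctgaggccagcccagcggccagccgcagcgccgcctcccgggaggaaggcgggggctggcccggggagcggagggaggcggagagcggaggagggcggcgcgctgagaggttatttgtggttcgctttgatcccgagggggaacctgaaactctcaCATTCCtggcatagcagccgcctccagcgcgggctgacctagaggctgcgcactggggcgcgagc
The hexamer stood 103 bases before the start in Cyr61, 210 and 123 bases before it in Ankrd1, and 65 bases before it in Amotl2. It was also found once in the windows of Yap1 and Wwtr1 and was not found in that of Tead2. Of 32851 RefSeq windows of the same length, 12.6% held GGAATG on either strand and 1.02% held it 2 or more times. The AP-1 motif TGANTCA was found in 6.75% of all windows and in none of those of the 6 matched genes. A match of letters is a description of the window and not a measured binding site.

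The values are FPKM, fragment counts corrected for how long a transcript is and how deeply its library was read, so levels can be set beside each other between genes. The FPKM sums of the libraries ran from 424406 to 718138, with 14972 to 16831 genes above 0, and the sequencing depth is unknown. Zfp281 had 25.1 to 38.6 FPKM in the 6 libraries of 3WT and 3.34Null-Rescue, 1.29 to 3.96 FPKM in 3.34Null, and 0, 0 and 0.559 FPKM in 2.6Null. Several libraries stood apart. At cXENp3 the 3WT library had 7264 FPKM over 8 ESC markers and 5.55 FPKM over 8 XEN markers, against 6931 to 9496 FPKM and 1.03 to 48.4 FPKM in ESCs, so by these markers it goes against its cXEN label. The 2.6Null ESC library held that 48.4 FPKM of XEN markers, against 1.03 to 5.93 FPKM in the other 3. The 3.34Null-Rescue cXENp3 library had 1290 FPKM over 12 fibroblast markers and 1252 FPKM over 6 smooth muscle and SRF markers, above every other library. Its ESC markers summed to 3881 FPKM and its XEN markers to 13.5 FPKM, against 941 and 1167 FPKM of XEN markers in the KO lines at that stage and 1026 and 1410 FPKM in the XEN lines. The XEN lines carried fibroblast markers at 572 and 665 FPKM, so that list does not mark feeder cells alone. In all comparisons the 4 ESC libraries have the library description prefix XH in 2.6Null and JH in the other 3 lines, while every later library has XH. What the prefix means is not given in the sources used here.

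Yap1, the coactivator itself, was the least variable of the 10 genes. Yap1 (XLOC_021451, mm9 chromosome 9, 7932001 to 8004596) had 52.6 FPKM in 3WT ESCs, 35.6 in 2.6Null, 42.3 in 3.34Null and 45.5 in 3.34Null-Rescue. At cXENp1 the levels were 67.5, 52.1, 54.9 and 67.8 FPKM in the same order, and at cXENp3 61.7, 50.3, 62.8 and 55.9 FPKM. XEN5 had 61.6 FPKM and XENB1 58.0 FPKM. The highest library exceeded the lowest by 1.90 times, and every line was higher at cXENp1 than as ESC. Yap1 rose at cXENp1 by 0.46 on the log2(FPKM + 1) scale (SE 0.15, adjusted p = 0.0454 by limma), a call that did not hold when any 1 line was left out (adjusted p from 0.0957 to 0.201). All differences below are on that scale, each adjusted p is from limma with Benjamini-Hochberg adjustment over all genes tested, and a gene is called at an adjusted p under 0.05.

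Wwtr1 was low in Zfp281-present ESCs and high in the KO lines at cXENp3. Wwtr1 (XLOC_013191, mm9 chromosome 3, 57259566 to 57379832) had 11.2 FPKM in 3WT ESCs and 7.43 in 3.34Null-Rescue, against 22.5 in 2.6Null and 22.7 in 3.34Null. At cXENp1 the order was not kept, with 21.8 in 3WT, 19.7 in 2.6Null, 17.5 in 3.34Null and 13.1 in 3.34Null-Rescue. At cXENp3 it had 39.6 FPKM in 2.6Null and 30.1 in 3.34Null, above 15.8 in 3WT and 15.2 in 3.34Null-Rescue. The XEN lines had 17.3 FPKM (XEN5) and 22.0 FPKM (XENB1), below both KO lines at cXENp3.

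The TEAD genes each followed a course of their own. Tead2 (XLOC_017995, mm9 chromosome 7, 52471123 to 52488989), a TEAD gene expressed in early embryos, was the most abundant of the 3 in each ESC library and at cXENp1, where it had 124 FPKM in 3WT, 77.7 in 2.6Null, 112 in 3.34Null and 169 in 3.34Null-Rescue. In ESCs it had 82.6, 43.7, 74.8 and 68.9 FPKM in that order of lines. At cXENp3 Tead2 had 122 FPKM in 3WT and 77.3 in 3.34Null-Rescue, against 28.3 in 2.6Null and 52.6 in 3.34Null. Both KO lines were then below both Zfp281-present lines, and the XEN lines had 70.4 (XEN5) and 52.9 FPKM (XENB1). Tead4 (XLOC_017430, mm9 chromosome 6, 128177161 to 128250831), known for its part in trophectoderm, had 10.3 to 14.1 FPKM in ESCs and 16.1 and 16.4 FPKM in the XEN lines. At cXENp1 it had 0.841 FPKM in 3WT, 7.78 in 2.6Null, 1.97 in 3.34Null and 1.48 in 3.34Null-Rescue. At cXENp3 it had 2.82, 6.90, 13.0 and 1.48 FPKM in the same order, so both KO lines exceeded both Zfp281-present lines. Over 6 trophectoderm markers the summed level was 63.6 to 122 FPKM in the 3 ESC libraries other than 2.6Null, which had 6.69 FPKM, and 4.38 and 4.68 FPKM in the XEN lines. At cXENp1 the sums were lower in the same 3 lines, as Tead4 was, with at most 35.6 FPKM (3.34Null), and higher in 2.6Null, at 33.2 FPKM. Of 4 such markers tested between XEN lines and ESCs, 1 was called higher and 2 lower.

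Tead1 (XLOC_018335, mm9 chromosome 7, 119822834 to 120050319), a broadly expressed TEAD gene, had 22.7 FPKM in 3WT ESCs, 23.3 in 3.34Null, 23.8 in 3.34Null-Rescue and 7.69 in 2.6Null. At cXENp1 it had 33.4 FPKM in 3WT, 33.3 in 2.6Null, 37.2 in 3.34Null and 25.1 in 3.34Null-Rescue. At cXENp3 it had 43.3 FPKM in 2.6Null and 44.8 in 3.34Null, beside 47.0 in XEN5 and 38.3 in XENB1. The Zfp281-present lines had 16.7 FPKM (3WT) and 22.8 FPKM (3.34Null-Rescue) at that stage, below both KO lines and both XEN lines. Tead3, the remaining TEAD gene of the mouse, was the lowest of the family in 3WT as ESC (1.41 FPKM), had 7.30 to 13.4 FPKM at cXENp1 and 5.18 and 7.85 FPKM in the XEN lines.

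**Figure D1:**
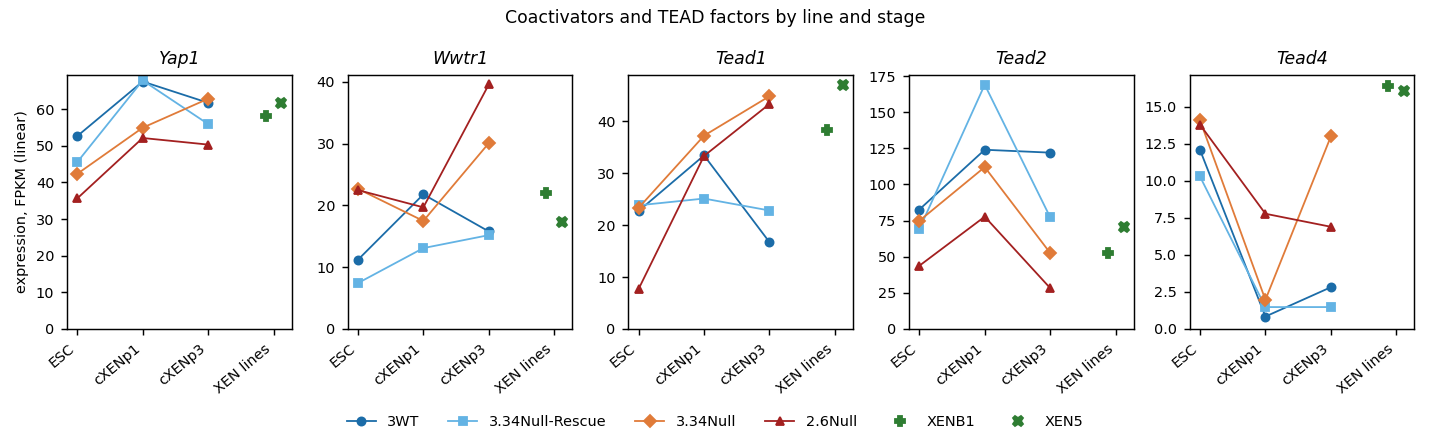
FPKM (linear axis from 0) of Yap1, Wwtr1, Tead1, Tead2 and Tead4 in the 4 lines at ESC, cXENp1 and cXENp3, joined by line, and in XENB1 and XEN5; each point is 1 library. Yap1 stays between 35.6 and 67.8 FPKM, and at cXENp3 the KO lines lie above the Zfp281-present lines for Wwtr1, Tead1 and Tead4 and below them for Tead2.

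The target genes spanned a far wider range than the factors. Ctgf (XLOC_001343, mm9 chromosome 10, 24315248 to 24318488), which encodes a secreted matrix-associated protein, had 0.900 FPKM in 3WT ESCs, 12.5 in 2.6Null, 6.74 in 3.34Null and 1.16 in 3.34Null-Rescue. At cXENp1 it had 15.5, 114, 41.3 and 23.1 FPKM, and at cXENp3 12.8, 1653, 878 and 82.0 FPKM, in the same order. XEN5 had 842 FPKM and XENB1 2064 FPKM. At each of the 3 stages both KO lines were above both Zfp281-present lines, and at cXENp3 they lay between the 2 XEN lines. The highest library exceeded the lowest 2292 times.

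Cyr61 (XLOC_013600, mm9 chromosome 3, 145309935 to 145312949), of the same protein family as Ctgf, was also up in every line by cXENp1. It had 1.67 FPKM in 3WT ESCs, 16.2 in 2.6Null, 3.45 in 3.34Null and 2.30 in 3.34Null-Rescue. At cXENp1 it had 92.4, 173, 166 and 92.9 FPKM in that order, and at cXENp3 11.9, 763, 401 and 106 FPKM. In 3WT Cyr61 was lower at cXENp3 than at cXENp1 by 2.86 on the log2 scale, while it was higher by 2.13 in 2.6Null and by 1.27 in 3.34Null. The XEN lines had 307 (XEN5) and 637 FPKM (XENB1).

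Amotl2 (XLOC_021264, mm9 chromosome 9, 102620134 to 102635747) encodes an angiomotin family protein that binds YAP and restrains it, so it is both target and inhibitor. It had 9.86 FPKM in 3WT ESCs, 17.3 in 2.6Null, 5.25 in 3.34Null and 9.42 in 3.34Null-Rescue. At cXENp1 all lines were high, with 71.9, 105, 86.8 and 63.4 FPKM in that order. At cXENp3 the KO lines had 125 (2.6Null) and 84.2 FPKM (3.34Null), while 3WT had 10.1 and 3.34Null-Rescue 19.9 FPKM. The 3WT level at cXENp3 was within 0.03 of its ESC level on the log2 scale, and the XEN lines had 138 (XEN5) and 128 FPKM (XENB1).

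Thbs1 and Ankrd1 differed from the other targets in the 3.34Null-Rescue line. Thbs1 (XLOC_011130, mm9 chromosome 2, 117937658 to 117952869), which encodes the matrix glycoprotein thrombospondin, had at most 0.697 FPKM in ESCs, in 2.6Null, and 0.0171 to 0.0231 FPKM in the other 3 lines. At cXENp1 it had 14.1 FPKM in 3WT, 18.2 in 2.6Null, 43.2 in 3.34Null and 16.6 in 3.34Null-Rescue. At cXENp3 it had 14.5, 346, 171 and 167 FPKM in that order, so 3.34Null-Rescue stood beside 3.34Null and not beside 3WT. XEN5 had 147 FPKM and XENB1 355 FPKM. Ankrd1 (XLOC_010433, mm9 chromosome 19, 36186455 to 36194334), which encodes an ankyrin repeat protein induced in stretched muscle, was listed at 0 in 3WT ESCs and had 0.888, 0.270 and 0.291 FPKM in ESCs of 2.6Null, 3.34Null and 3.34Null-Rescue. At cXENp1 it had 3.65 FPKM in 3WT, 13.7 in 2.6Null, 2.48 in 3.34Null and 1.79 in 3.34Null-Rescue. At cXENp3 it had 1.02, 42.4, 18.8 and 15.6 FPKM in that order, and 20.0 (XEN5) and 40.8 FPKM (XENB1) in the XEN lines. The 3.34Null-Rescue cXENp3 library, which carried these Thbs1 and Ankrd1 levels, is the one with the highest fibroblast and smooth muscle marker sums, and the part of those cells in the values was not tested. In bulk libraries fewer cells of a type and less RNA per cell cannot be told apart.

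**Figure D2:**
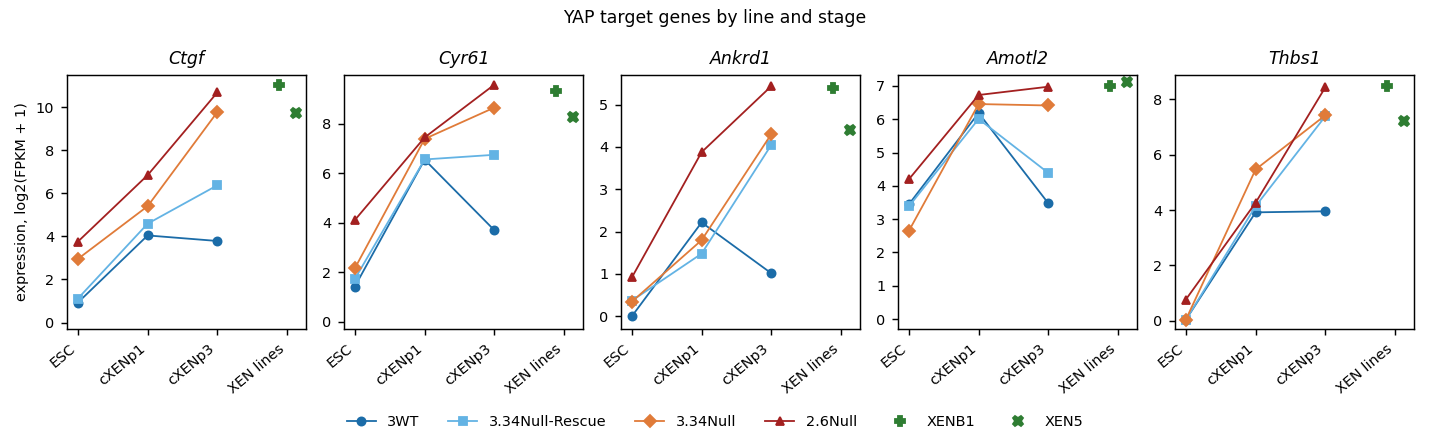
Expression of the 5 target genes as log2(FPKM + 1) in the 4 lines at ESC, cXENp1 and cXENp3, joined by line, and in XENB1 and XEN5; each point is 1 library and each panel has its own vertical scale. The KO lines end near the XEN lines at cXENp3, 3WT is then below them, and 3.34Null-Rescue lies between them for Ctgf, Cyr61 and Amotl2 but beside 3.34Null for Thbs1 and Ankrd1.

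The endpoint of the differentiation was read from the XEN lines against the ESC libraries of all 4 lines. Ctgf, Cyr61 and Amotl2 were higher in XEN lines, and no coactivator or TEAD gene passed the test. Ankrd1 and Thbs1 were called too, but only the 2 XEN libraries lifted them over the filter (at least 2 libraries at 1 FPKM), so they had to differ and their calls are no support. The difference was 8.18 for Ctgf (SE 0.82, adjusted p = 0.000238), 7.63 for Thbs1 (SE 0.41, adjusted p = 1.7e-05), 6.44 for Cyr61 (SE 0.71, adjusted p = 0.00037), 4.48 for Ankrd1 (SE 0.37, adjusted p = 0.0001) and 3.65 for Amotl2 (SE 0.39, adjusted p = 0.000315). Thus 5 of the 10 genes were called, all higher, with those 2 among them, where 41.9% of 12372 genes were called and 22.2% were called higher. Tead1 differed by 1.21 (SE 0.44, adjusted p = 0.0592), and without the 2.6Null ESC library, which held the low value of 7.69 FPKM, by 0.84 with an adjusted p of 0.00934. Yap1 differed by 0.45 (SE 0.21, adjusted p = 0.127), and the intervals of Wwtr1 (95% interval -0.63 to 1.44), Tead2 (-0.77 to 0.56) and Tead4 (-0.18 to 0.89) include 0. With the description prefix as a term the ESC level rests on the 2.6Null library alone, the one with the low Tead1 value. In that fit the targets differed by 2.87 (Amotl2) to 7.08 (Thbs1) and Tead1 by 2.32. Without XEN5 or without XENB1 3 of the 10 genes were called, since Ankrd1 and Thbs1 then reached 1 FPKM in a single library and were not tested.

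The change from ESC to cXENp1 was tested with the line as a block; it takes in the new medium, retinoic acid, activin A and, in 3 lines, the prefix, which cannot be told apart. The targets rose in each of the 4 lines, Tead2 and Yap1 rose, and Tead4 fell. Cyr61 rose by 4.63 (SE 0.69, adjusted p = 0.00199), Thbs1 by 4.23 (SE 0.63, adjusted p = 0.00193), Ctgf by 3.04 (SE 0.67, adjusted p = 0.0111), Amotl2 by 2.93 (SE 0.54, adjusted p = 0.00501) and Ankrd1 by 1.94 (SE 0.60, adjusted p = 0.038). Tead2 rose by 0.82 (SE 0.24, adjusted p = 0.0342) and Tead4 fell by 2.03 (SE 0.42, adjusted p = 0.00883), each in all 4 lines. The Tead2 call was lost without 3.34Null, without 3.34Null-Rescue and without 2.6Null (adjusted p from 0.0548 to 0.186), and the Ankrd1 call without any of the same lines (0.0866 to 0.119). That of Ctgf was lost without 3.34Null-Rescue (adjusted p = 0.0701) and with the block dropped (adjusted p = 0.102). Thbs1 and Ankrd1 were under 1 FPKM in all ESC libraries and passed the filter through the later stages, so their calls are no support. In all, 7 of the 10 genes were called higher and 1 lower, against 14.7% and 13.8% of 13191 genes (28.5% in either direction). Thbs1 and Ankrd1 are among those called higher. Within 2.6Null, the line whose libraries all carry the prefix XH, the change from ESC to cXENp1 was 3.34 for Cyr61, 3.50 for Thbs1, 3.10 for Ctgf, 2.53 for Amotl2, 2.96 for Ankrd1 and -0.76 for Tead4. With the prefix as a term, a fit in which the ESC level rests on the 2.6Null library, Tead1 alone of the 10 genes was called (difference 2.22, adjusted p = 0.0443), with adjusted p-values of 0.0745 to 0.109 for the targets, while their differences lay between 3.06 and 4.41. Smooth muscle and SRF markers moved with the targets, and their part in the result was not tested. Of 6 such markers 5 were called higher, with sums of 228 to 388 FPKM at cXENp1 against 11.4 to 13.3 FPKM in ESCs. In each ESC library 1 of the 6 reached 1 FPKM. Most of the list thus passed the filter through the later stages, and those calls are no support.

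At cXENp3 the targets stood above the ESC level in the average of the 4 lines, but the lines diverged. Thbs1 rose by 6.59 (SE 0.63, adjusted p = 0.00424), Ctgf by 5.47 (SE 0.67, adjusted p = 0.00722), Cyr61 by 4.82 (SE 0.69, adjusted p = 0.0115) and Ankrd1 by 3.30 (SE 0.60, adjusted p = 0.0216). Amotl2 differed by 1.90 (SE 0.54, adjusted p = 0.0554), with changes of 0.03 in 3WT, 1.00 in 3.34Null-Rescue, 2.78 in 2.6Null and 3.77 in 3.34Null. So 4 of the 10 genes were called, all higher, against 9.35% of all genes called and 5.34% called higher. Among them Thbs1 and Ankrd1 were under 1 FPKM in all ESC libraries. Both passed the filter through the later stages, so their calls are no support. Yap1 differed by 0.39 (adjusted p = 0.0995) and Tead4 by -1.24 (adjusted p = 0.0795). Without 3.34Null, without 3.34Null-Rescue or with the prefix as a term none of the 10 genes was called, while the differences of the 4 called genes stayed between 3.07 and 6.77. Without the 3.34Null-Rescue cXENp3 library alone 3 were called, and the adjusted p of Ankrd1 was 0.0618. Fibroblast markers moved with the targets after the passage on feeder cells, with 7 of 11 called higher and sums of 36.7 to 1290 FPKM at cXENp3 against 5.20 to 18.1 FPKM in ESCs. Smooth muscle and SRF markers did too, with 5 of 6 called higher and sums of 56.2 to 1252 FPKM. The part of either list in the result was not tested. In each ESC library 2 of the 12 fibroblast markers and 1 of the 6 smooth muscle and SRF markers reached 1 FPKM. Most of both lists thus passed the filter through the later stages, and those calls are no support.

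Between cXENp1 and cXENp3 none of the 10 genes was called by limma, against 7.45% of all genes, and 4 of the 10 had an unadjusted p under 0.05. Thbs1 differed by 2.36 (SE 0.63, adjusted p = 0.0525), Ctgf by 2.44 (SE 0.67, adjusted p = 0.0595) and Tead2 by -0.91 (SE 0.24, adjusted p = 0.0539). Without 3WT 4 of the 10 genes were called. Ctgf then differed by 3.34 (adjusted p = 0.0066), Thbs1 by 3.13 (adjusted p = 0.00568), Ankrd1 by 2.22 (adjusted p = 0.0162) and Tead2 by -1.21 (adjusted p = 0.0246).

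The effect of Zfp281 was compared at each stage, with 2 KO lines against 2 Zfp281-present lines and 1 spread shared by the 6 groups. In ESCs none of the 10 genes was called by limma, against 1.97% of all genes, and 2 had an unadjusted p under 0.05. These were Wwtr1, with a KO minus Zfp281-present difference of 1.22 (SE 0.27, adjusted p = 0.0523), and Ctgf, with 2.33 (SE 0.74, adjusted p = 0.118). Among the 3 ESC libraries with the prefix JH, Ctgf had 6.74 FPKM in 3.34Null against 0.900 and 1.16 FPKM, and Wwtr1 had 22.7 FPKM against 11.2 and 7.43 FPKM. Cyr61 differed by 1.56 (SE 0.85, adjusted p = 0.335), and by 0.58 without the 2.6Null ESC library. At cXENp1 again none was called, against 0.485% of all genes, and 2 had an unadjusted p under 0.05: Ctgf with 1.81 (SE 0.74, adjusted p = 0.402) and Tead4 with 1.26 (SE 0.48, adjusted p = 0.354).

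At cXENp3 7 of the 10 genes were called between KO and Zfp281-present lines, and they included targets, a coactivator and all 3 TEAD genes. Ctgf was higher in KO lines by 5.16 (SE 0.74, adjusted p = 0.000837), Cyr61 by 3.90 (SE 0.85, adjusted p = 0.00594) and Amotl2 by 2.77 (SE 0.46, adjusted p = 0.00155). In FPKM the KO mean was 1266 ± 548 for Ctgf (SD, n = 2) against 47.4 ± 48.9 (SD, n = 2), 582 ± 255 for Cyr61 against 59.0 ± 66.7, and 105 ± 28.8 for Amotl2 against 15.0 ± 6.93. Wwtr1 was higher by 1.10 (SE 0.27, adjusted p = 0.0102), Tead1 by 1.13 (SE 0.39, adjusted p = 0.041) and Tead4 by 1.77 (SE 0.48, adjusted p = 0.0147), and Tead2 was lower, with a difference of -1.31 (SE 0.37, adjusted p = 0.0186). Ankrd1 with 2.34 (SE 0.91, adjusted p = 0.0634) and Thbs1 with 2.26 (SE 0.88, adjusted p = 0.0627) did not pass, and Yap1 differed by -0.06 (95% interval -0.47 to 0.35). The count of 6 called higher and 1 lower stands beside 22.9% and 19% of all genes (41.9% in either direction), and the median was 2.02 over the 10 genes against 0.01 over all. XEN markers moved with these genes, with 8 of 8 called higher in KO lines, sums of 941 and 1167 FPKM against 5.55 and 13.5 FPKM, and ESC markers with 8 of 8 called lower. The share of each cell type in the differences was not tested.

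The calls at cXENp3 depended on the lines to different degrees. Without 2.6Null the calls of Wwtr1 (adjusted p = 0.0867) and Tead2 (adjusted p = 0.0837) were lost. That of Tead1 was lost with every gene above 0 tested (adjusted p = 0.0709) and after quantile normalization (adjusted p = 0.0545). Leaving out the whole 3.34Null-Rescue line leaves 3WT as the only Zfp281-present library of the stage. The calls of Tead1, Tead2 and Tead4 were then lost, with differences of 1.35, -1.64 and 1.46. Without the 3.34Null-Rescue cXENp3 library 7 genes were again called, but Tead1 (adjusted p = 0.0564) and Tead4 (adjusted p = 0.0756) were not among them, while Thbs1 differed by 3.98 (adjusted p = 0.0013) and Ankrd1 by 3.86 (adjusted p = 0.00618). Without the 3WT line, which leaves 3.34Null-Rescue as the only Zfp281-present library of the stage, assumed to vary like the other groups, Ctgf alone was called, with a difference of 3.86 (adjusted p = 0.026). The KO lines then exceeded the remaining line by 2.37 in Cyr61 (adjusted p = 0.0925), 2.31 in Amotl2 (adjusted p = 0.061), 0.82 in Ankrd1 (adjusted p = 0.556) and 0.54 in Thbs1 (adjusted p = 0.597).

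**Figure D3:**
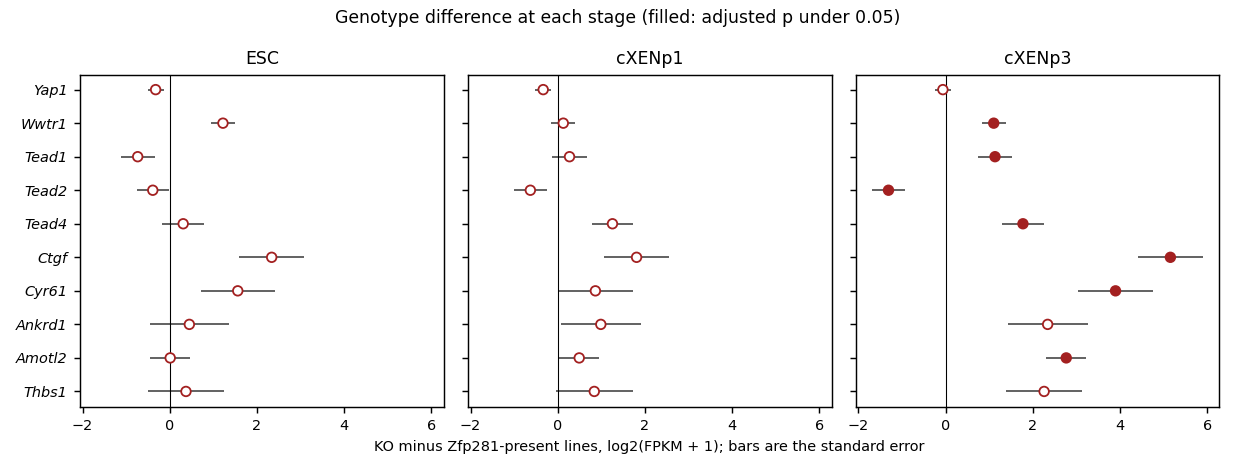
Difference between KO and Zfp281-present lines (KO minus present, log2(FPKM + 1)) for the 10 genes at ESC, cXENp1 and cXENp3; bars are the standard error, and filled points have an adjusted p under 0.05. No point is filled at ESC or cXENp1, and 7 are filled at cXENp3, where Ctgf has the largest difference (5.16) and Tead2 the negative one (-1.31).

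Whether the genotype difference itself changed between stages was tested as an interaction. From ESC to cXENp3 the difference grew by 2.76 for Amotl2 (SE 0.64, adjusted p = 0.0172) and by 1.87 for Tead1 (SE 0.55, adjusted p = 0.0381), so 2 of the 10 genes were called, both upward, against 22.6% of all genes called and 13.7% upward. For Ctgf it was 2.82 (SE 1.05, adjusted p = 0.0789), and with the line as a replicate block Ctgf was called as well (adjusted p = 0.027). Without the 2.6Null ESC library the Tead1 interaction was 1.13 (adjusted p = 0.0437). Without the 3.34Null-Rescue cXENp3 library 6 of the 10 genes were called, which were Tead1 and the 5 targets, with Ctgf at 4.12 (adjusted p = 0.011) and Cyr61 at 3.87 (adjusted p = 0.0171). Without the whole 3WT or the whole 3.34Null-Rescue line none was called. From cXENp1 to cXENp3, where all libraries carry the prefix XH, Amotl2 had an interaction of 2.27 (SE 0.64, adjusted p = 0.049), the 1 gene of the 10 called, against 11.4% of all genes called and 7.19% upward. Ctgf had 3.35 (SE 1.05, adjusted p = 0.0651) and Cyr61 3.03 (SE 1.21, adjusted p = 0.117), and with the replicate block 2 genes were called, Amotl2 and Ctgf (adjusted p = 0.0264). Without the 3.34Null-Rescue cXENp3 library 4 were called, with 4.64 for Ctgf (adjusted p = 0.00867) and 4.56 for Cyr61 (adjusted p = 0.0119). From ESC to cXENp1 none was called by limma, against 0.0379% of all genes, and Wwtr1 was the 1 gene with an unadjusted p under 0.05 (interaction -1.09, adjusted p = 0.339).

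The KO lines at cXENp3 were also set beside the XEN lines, and none of the 10 genes was called by limma, against 4.12% of all genes. Only Wwtr1 had an unadjusted p under 0.05, with 0.79 more in KO lines (SE 0.27, adjusted p = 0.131), and its KO mean was 178% of the XEN mean in FPKM. The KO mean was 87.1% of the XEN mean for Ctgf, 123% for Cyr61, 78.7% for Amotl2, 103% for Thbs1 and 103% for Tead1. In the Zfp281-present lines the cXENp3 mean was 3.26% of the XEN mean for Ctgf, 12.5% for Cyr61, 11.3% for Amotl2, 36.2% for Thbs1 and 46.3% for Tead1. With 2 libraries a side the intervals are wide: the difference between KO and XEN lines was -0.13 for Ctgf (95% interval -1.79 to 1.53), 0.32 for Cyr61 (-1.52 to 2.17) and -0.37 for Amotl2 (-1.32 to 0.58). So the test does not show equal levels.

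Over the course as a whole, with the stage as a block, Ctgf was the 1 gene of the 10 called between KO and 3WT libraries, where 0.599% of all genes were called and 0.364% were higher in KO lines. It was higher in KO lines by 3.65 (SE 0.69, adjusted p = 0.0494), a call that was lost when either KO line or any stage was left out. Cyr61 differed by 2.67 (SE 0.70, adjusted p = 0.113). Between 3.34Null-Rescue and KO libraries none was called by limma, against 0.447% of all genes, and 4 of the 10 had an unadjusted p under 0.05. The rescue line had less Ctgf, with a difference of -2.55 (SE 0.69, adjusted p = 0.142), and less Wwtr1, with -1.03 (SE 0.25, adjusted p = 0.113). In both comparisons the libraries of 1 line stand in for replicates.

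The rest of the Hippo pathway was described from lists of 46 further genes found in the table, of which 41 to 43 could be tested. Between XEN lines and ESCs 17 of 41 were called higher and 1 lower, beside 22.2% of all genes called higher and 41.9% in either direction. The 18 called in either direction are a share near that of all genes. The number called was 9 without XENB1, and 12 to 21 with any other line left out. By list, 2 of 7 core kinases and adaptors were called higher, and of 11 upstream regulators 2 higher and 1 lower. Of the binding partners of YAP and TEAD 5 of 6 were called higher, and of other target genes 10 of 20. In the ESC libraries 4 to 6 of 8 listed binding partners reached 1 FPKM, against 6 in each XEN line. For the other target genes it was 13 to 16 of 21, against 19 in XEN5 and 21 in XENB1. Genes that passed the filter through the XEN lines had to be higher, and their calls are no support. F3, which encodes tissue factor, differed by 6.84 (adjusted p = 2.08e-05), Crim1, a membrane protein that binds BMPs, by 6.10. Ccdc80, a secreted matrix protein, had 43.0 (XENB1) and 15.4 FPKM (XEN5) and at most 0.0558 FPKM in ESCs, so it passed the filter through the XEN lines and had to differ. F3 ran from 2.66 to 8.07 FPKM in ESCs and had 537 and 748 FPKM in the XEN lines. Wwc1 (KIBRA), which feeds into the kinase cascade, was the 1 gene lower, with a difference of -2.14 (adjusted p = 0.00232). Lats2, a kinase of YAP that is itself a target, rose by 2.77 (SE 0.39, adjusted p = 0.00106), while its paralog Lats1 differed by 0.55 (adjusted p = 0.127). Lats2 had 0.454 to 1.84 FPKM in ESCs, under 1 FPKM in all lines but 2.6Null, and 17.8 (XENB1) and 8.11 FPKM (XEN5). It thus passed the filter through the XEN lines, and its call is no support. Tead3 rose by 1.58 (SE 0.28, adjusted p = 0.00316).

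At cXENp1 16 of 43 were called higher and none lower than in ESCs, beside 14.7% of all genes called higher, and this fell to 2 with the prefix as a term, 6 without 3.34Null and 8 without 3.34Null-Rescue. Amot differed by 3.64 (adjusted p = 0.000548), Tgfb2 by 2.81 (adjusted p = 0.00268) and F3 by 2.74 (adjusted p = 0.0482), the last a call kept in 3 of 12 alternatives. Amot is a relative of Amotl2, and Tgfb2 encodes a TGF-beta ligand. Under settings other than a line left out, the difference ran from 3.45 to 4.97 for Amot and from 2.44 to 5.35 for Tgfb2. Either gene may have passed the filter through the later stages, so their calls are not taken as support. Lats2 rose by 2.28 (adjusted p = 0.0111) and Tead3 by 2.08 (adjusted p = 0.00172). Of the ESC libraries only that of 2.6Null had Lats2 at 1 FPKM or more. Lats2 thus passed the filter through the later stages, and its call is no support. The same holds for any other of the 43 genes that was under 1 FPKM in ESCs. At cXENp3 12 were called higher than in ESCs, beside 5.34% of all genes, led by Crim1 (3.90), F3 (3.77) and Ccdc80 (3.38). None was called with the prefix as a term, without the 3.34Null-Rescue cXENp3 library, or without any 1 of 3.34Null, 3.34Null-Rescue and 2.6Null, and 20 were called without 3WT. Ccdc80, which was near the floor in ESCs, passed the filter here through the later stages, so its call is no support. From cXENp1 to cXENp3 5 genes fell and none rose, where 4.98% of all genes fell, among them Amot by 1.60, Tead3 by 1.48 and Vgll4, a TEAD cofactor that competes with YAP, by 1.37. The number was 1 without 3.34Null and 2 without 3.34Null-Rescue or 2.6Null, and the calls of Amot (adjusted p from 0.0581 to 0.196) and Vgll4 (0.057 to 0.272) were lost with any 1 line left out. Tead3 fell from 7.30 to 13.4 FPKM at cXENp1 to 1.36 to 4.61 FPKM at cXENp3.

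Between KO and Zfp281-present lines at cXENp3 18 of the 43 were called higher and 3 lower, beside 22.9% and 19% of all genes, and 5 in either direction were called without 3WT. F3 was higher by 5.66 (SE 0.50, adjusted p = 9.53e-05), Crim1 by 5.00 and Ccdc80 by 3.32. With 1 line left out the Ccdc80 difference ran from 1.97 to 4.66. Ccdc80 passed the filter of this fit through the later stages. Its call here and its interaction from ESC to cXENp3 below are thus no support. F3 had 607 FPKM in 2.6Null and 469 in 3.34Null, against 4.60 in 3WT and 19.1 in 3.34Null-Rescue. The 3 genes lower in KO lines were Nuak2, a kinase and target gene (-1.44), Fjx1, a Golgi kinase-like protein and target gene (-1.41), and Nf2, the upstream regulator Merlin (-0.76). Both LATS kinases were higher, Lats1 by 1.12 (adjusted p = 0.00685) and Lats2 by 2.54 (adjusted p = 0.00405). Lats2 had 27.8 and 17.3 FPKM in the KO lines against 1.07 in 3WT and 6.52 in 3.34Null-Rescue. In ESCs Mob1a, a LATS coactivator, was the 1 gene called, with 33.7 and 33.2 FPKM in the KO lines against 12.5 and 12.7 FPKM (difference 1.34, adjusted p = 0.0346). It was also the 1 gene called between KO and 3WT libraries over the course (1.53, adjusted p = 0.0261) and between 3.34Null-Rescue and KO libraries (-1.35, adjusted p = 0.0441). Both of these calls were lost with either KO line or any stage left out (adjusted p from 0.0807 to 0.201 and from 0.115 to 0.285), and the call in ESCs was kept in 5 of 11 alternatives. At cXENp1, and between KO lines at cXENp3 and XEN lines, none of the 43 was called. The genotype difference grew from ESC to cXENp3 in 11 of them, beside 13.7% of all genes, led by Crim1 (4.71), F3 (4.69) and Ccdc80 (3.28), with Lats1 at 1.13 (adjusted p = 0.0467). This number was 0 without 3WT, 2 without 3.34Null-Rescue, 4 without 2.6Null and 17 without the 3.34Null-Rescue cXENp3 library, and the calls of Ccdc80 and Lats1 were each kept in 3 of 13 alternatives. From cXENp1 to cXENp3 it grew in 4, beside 7.19% of all genes, led by F3 (4.37), Crim1 (3.91) and Foxf2, a forkhead factor (2.90), and it was lower in Wwc1 (-1.70), and without 3WT none was called. From ESC to cXENp1 it was called in none. The Foxf2 interaction ran from 2.84 to 4.99 under settings other than a line left out. Foxf2 may have passed the filter through the libraries where it is high, so its call is not taken as support.

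**Figure D4:**
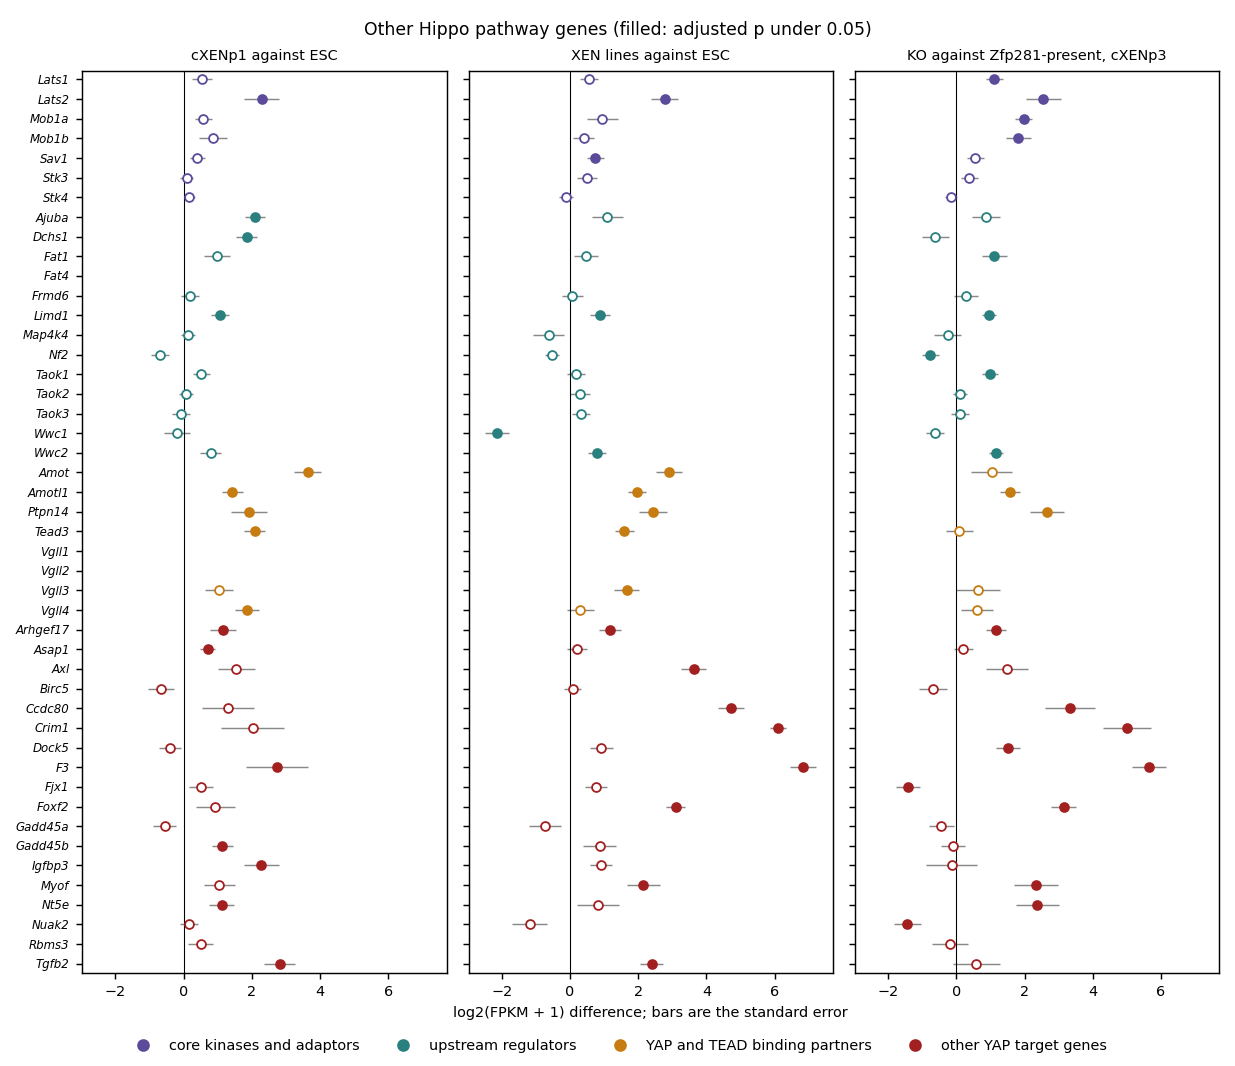
Differences in log2(FPKM + 1) for the other Hippo pathway genes, by list, for cXENp1 against ESC, XEN lines against ESC and KO against Zfp281-present lines at cXENp3; bars are the standard error, filled points have an adjusted p under 0.05, and a row with no point was not tested. Of the genes drawn, 16, 17 and 18 are called higher in the 3 panels, and F3 and Crim1 have the largest differences in the panels of XEN lines and KO lines.

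Among the 10 genes the targets followed each other most closely over the 14 libraries, which share lines, stages and normalization. Pearson's r of log2(FPKM + 1) was 0.957 between Ctgf and Ankrd1, 0.932 between Cyr61 and both Amotl2 and Thbs1, and 0.926 between Ctgf and Cyr61. Yap1 had r of 0.330 with Ctgf and 0.476 with Cyr61, Wwtr1 0.680 and 0.628, and Tead1 0.640 and 0.660. Tead2 ran against Tead4, with r of -0.659, and had -0.492 with Ctgf. Of 12040 genes searched, those most like Cyr61 were Lats2 (r = 0.980), Kctd11 (0.978) and Bmp1 (0.977), and those most like Ctgf were Itpripl2 (0.975), Selm (0.974) and Cast (0.971). For Tead2 they were Ptbp2 (0.931), Efna2 (0.912) and Sv2a (0.905), and for Yap1 Baz1b (0.882), Scaf8 (0.868) and Ube2e2 (0.865). These values describe the 14 libraries and carry no test.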

How the data were processed

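The 14 libraries were sequenced from polyA RNA as paired reads of 150 bp, per the labels' protocols. The authors deposited 1 table of values per gene, taken here as FPKM because they are not whole, never negative and sum differently per library. STAR 2.5.3, Cufflinks 2.1.1 and mm9 are named, per the submitters' processing notes; strand, annotation and filters are not given in the sources used here. Without counts the depth is unknown, so no counting interval or detection limit was computed. Coordinates are those of the table, counted from 1.

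The deposited FPKM were put on a log2(FPKM + 1) scale, on which changes of low genes are understated. Genes with at least 2 fitted libraries at 1 FPKM were fitted with limma 3.58.1 (lmFit, eBayes with trend) in R 4.3.3, adjusted over all genes tested, and called at 0.05. All 10 members passed the filter in each comparison. Stage comparisons used line as a block and course comparisons stage as a block; comparisons of KO with Zfp281-present lines and interactions used 6 groups of 2 without a block, and those with XEN lines all 14 or the 6 XEN and ESC libraries. Each line gave 1 library per stage, so lines pair the stages: deviations of same-line libraries correlated at 0.034 to 0.396 over 12 pairs. The members and the lists were chosen with earlier results of these data known. Named beside the members are Zfp281, Lats1, Lats2, Tead3, in each comparison up to 3 called genes per direction with the largest change from the Hippo lists, and the 3 genes most correlated with Yap1, Tead2, Ctgf and Cyr61; other genes of the lists are only counted. The fits were tested on simulated data. Alternatives were the pseudocount (0.1), the filter (every gene above 0, or a mean of at least 5 FPKM), quantile normalization, eBayes without trend, the description prefix as a term, the block, and leaving out each line or stage. Leaving out the 3.34Null-Rescue cXENp3 or the 2.6Null ESC library was added after seeing the data.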

Additional observations from a re-analysis of the deposited data

Results flagged for a closer look

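Groups of 4 libraries at a stage were examined for a library far from the other 3, by Dixon's test at the 95% level, in 30 groups; chance flags about 1 group in 20. In the 2.6Null ESC library Tead1 had 7.69 FPKM, against 22.7 to 23.8 FPKM in the other lines, and Thbs1 had 0.697 FPKM, against 0.0171 to 0.0231 FPKM. Both values come from the library that also had a higher sum of XEN markers than the other ESC libraries.

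By the interaction test the KO minus Zfp281-present difference changed between stages in 2 of the 10 genes, where 22.6% of all genes were called from ESC to cXENp3, so the share is near that of all genes. None was called without 3WT or without 3.34Null-Rescue in that comparison. From ESC to cXENp3 it differed by 2.76 for Amotl2 and by 1.87 for Tead1, and from cXENp1 to cXENp3 by 2.27 for Amotl2. In 3 other cases, in Wwtr1, Tead2 and again Tead1, every KO line moved one way between the stages and every Zfp281-present line the other, and the interaction was not called: Wwtr1 from ESC to cXENp1 (-1.09, adjusted p = 0.339), Tead2 from ESC to cXENp3 (-0.917, adjusted p = 0.228) and Tead1 from cXENp1 to cXENp3 (0.864, adjusted p = 0.304). From ESC to cXENp1 Wwtr1 changed by 0.90 in 3WT and 0.74 in 3.34Null-Rescue, and by -0.36 in 3.34Null and -0.18 in 2.6Null.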

How the results depend on the processing

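Of 1104 values of single genes under alternatives, for 93 differences, 858 kept their direction and their side of the threshold, 217 kept the direction but were no longer called, 22 became called and 7 changed sign. All 7 belong to differences near 0: Yap1 between KO and Zfp281-present lines at cXENp3 was 0.01 without 3WT and 0.10 without 2.6Null (range -0.22 to 0.10 with 1 line left out); against the XEN lines Ctgf was 0.32 after quantile normalization, 0.33 without 3.34Null and 0.52 without XENB1 (range -0.78 to 0.52), and Cyr61 was -0.14 without 2.6Null and -0.20 without XEN5 (range -0.20 to 0.85). For XEN lines or cXEN stages against ESC, the fit with the prefix as a term rests its ESC level on the 2.6Null library. The number of the 10 genes called moved as follows. For XEN lines against ESC the main count of 5 was 6 with the prefix as a term, and 3 to 6 with 1 line left out, where the 3 came with either XEN line out and Ankrd1 and Thbs1 under the filter. For cXENp1 against ESC the main count of 8 became 1 with the prefix as a term, 4 with no replicate block, and 4 to 7 with 1 line left out. For cXENp3 against ESC the count of 4 became 0 with the prefix as a term and 0 to 5 with 1 line left out. Between cXENp1 and cXENp3 it was 1 with a pseudocount of 0.1, 1 after quantile normalization and 0 to 4 with 1 line left out. Between KO and Zfp281-present lines it was 1 in ESCs with a mean of at least 5 FPKM and 0 to 1 with 1 line left out there and at cXENp1, and 1 to 7 at cXENp3. For the interaction from ESC to cXENp3 the count of 2 became 1 with every gene above 0, 3 with the replicate block, 6 without the 3.34Null-Rescue cXENp3 library and 0 to 2 with 1 line left out. For the interaction from cXENp1 to cXENp3 the count of 1 became 0 with a pseudocount of 0.1, with every gene above 0, after quantile normalization and without trend, 2 with the replicate block, 4 without the 3.34Null-Rescue cXENp3 library and 0 to 1 with 1 line left out. For KO against WT over the course the count of 1 became 0 with every gene above 0, after quantile normalization, without trend, with the prefix as a term, with no replicate block, and with any KO line or stage left out. The other causes were not tested. The block changed no count of the 10 genes elsewhere, and the interaction from ESC to cXENp1, KO lines against XEN lines and 3.34Null-Rescue against KO gave 0 under every alternative run. Quantile normalization shifted the median of all genes by -0.109 between KO and Zfp281-present lines at cXENp3 and by -0.138 in the interaction from ESC to cXENp3, and by under 0.1 elsewhere; no called member changed sign. Within a stage KO and Zfp281-present lines differ by line, so a block by line could not be fitted there. With 1 library per line and stage and no counts, low values such as Thbs1 in ESCs have unknown precision.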
